A study of Mus musculus with 12 samples.

Results

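The genes described here are 44 mouse genes of the urea cycle and of amino acid breakdown, measured in whole liver of mice that were pair-fed (PF) or fed alcohol (AF). They were chosen by symbol (the choice is described with the processing), and all 44 were found among the 54232 gene IDs of the count table and passed the filter on low counts, which left 14168 genes. The livers came from male C57BL6/J mice with an age label of 8-week, in an intragastric model of alcohol-associated steatohepatitis (ASH). The 5 PF mice received a high-fat liquid diet for 8 weeks, and the 7 AF mice received it with ethanol, which reached 27 g/kg/day, and with a weekly binge of 5 g/kg. According to the study's methods, mice were first kept on a solid diet rich in cholesterol and saturated fat or on chow, tube feeding with ethanol was combined with free access to the rich solid diet, and livers were taken a day after the last binge. For the PF mice the methods name an isocaloric liquid diet and do not say which solid food they had. The livers are a mixture of cells.

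Amino acids that are not used for protein are broken down mainly in hepatocytes. Transaminases and glutamate dehydrogenase release the nitrogen as glutamate, aspartate and ammonia, and the urea cycle, which runs partly in mitochondria and partly in the cytosol and is strongest in periportal hepatocytes, turns it into urea. The carbon skeletons follow pathways of their own, for example from phenylalanine over tyrosine to fumarate and acetoacetate, or from tryptophan over kynurenine toward NAD, and many of these enzymes are known to respond to glucocorticoids, glucagon and fasting.

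Depth was similar in the 2 groups, with 24129900 to 28594027 reads on genes in the PF group and 25099033 to 30578639 in the AF group. TMM scaling factors of edgeR, which correct for the composition of a library, were 0.832 to 0.901 for PF livers and 0.880 to 1.36 for AF livers. The 44 genes had at least 40 counts in every library. The least covered of them was Sdsl, with 263 counts over the 5 PF livers, where counting error is a large part of the spread. Its 648 counts over the 7 AF livers came with a wider spread (2.94 ± 1.36 CPM, against 2.33 ± 0.387 CPM in PF livers). Values are given as CPM (reads scaled to library size with the TMM factors), and groups were compared over all 14168 genes with edgeR's quasi-likelihood test and Benjamini-Hochberg adjustment at a threshold of 0.05. Log2 fold changes are AF over PF and carry their standard error (SE). Alb, which encodes albumin, was at 89736 ± 14938 CPM in PF (SD, n = 5) and at 59144 ± 17050 CPM in AF livers (SD, n = 7), so the defining hepatocyte gene was present in both groups.

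Of the 44 genes, 23 were lower in AF livers, 2 were higher and 19 did not pass the test. Among all genes tested, 17.8% were lower and 22.0% were higher, so that the 44 genes stood at 52.3% lower against this background. The median log2 fold change of the 44 genes was -0.57 and that of all genes tested was 0.04. A negative fold change was found for 38 of the 44 genes, and the largest falls were those of the tryptophan enzymes Ido2 and Haao, the proline enzyme Prodh, the tyrosine enzyme Tat and the taurine enzyme Csad, each past -1. In bulk tissue, fewer hepatocytes and less of these RNAs per hepatocyte cannot be told apart. The sample titles number the replicates without naming animals, and the table's column names hold a further number per library whose meaning is not stated, so the p-values measure the spread between these libraries.

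**Figure D1:**
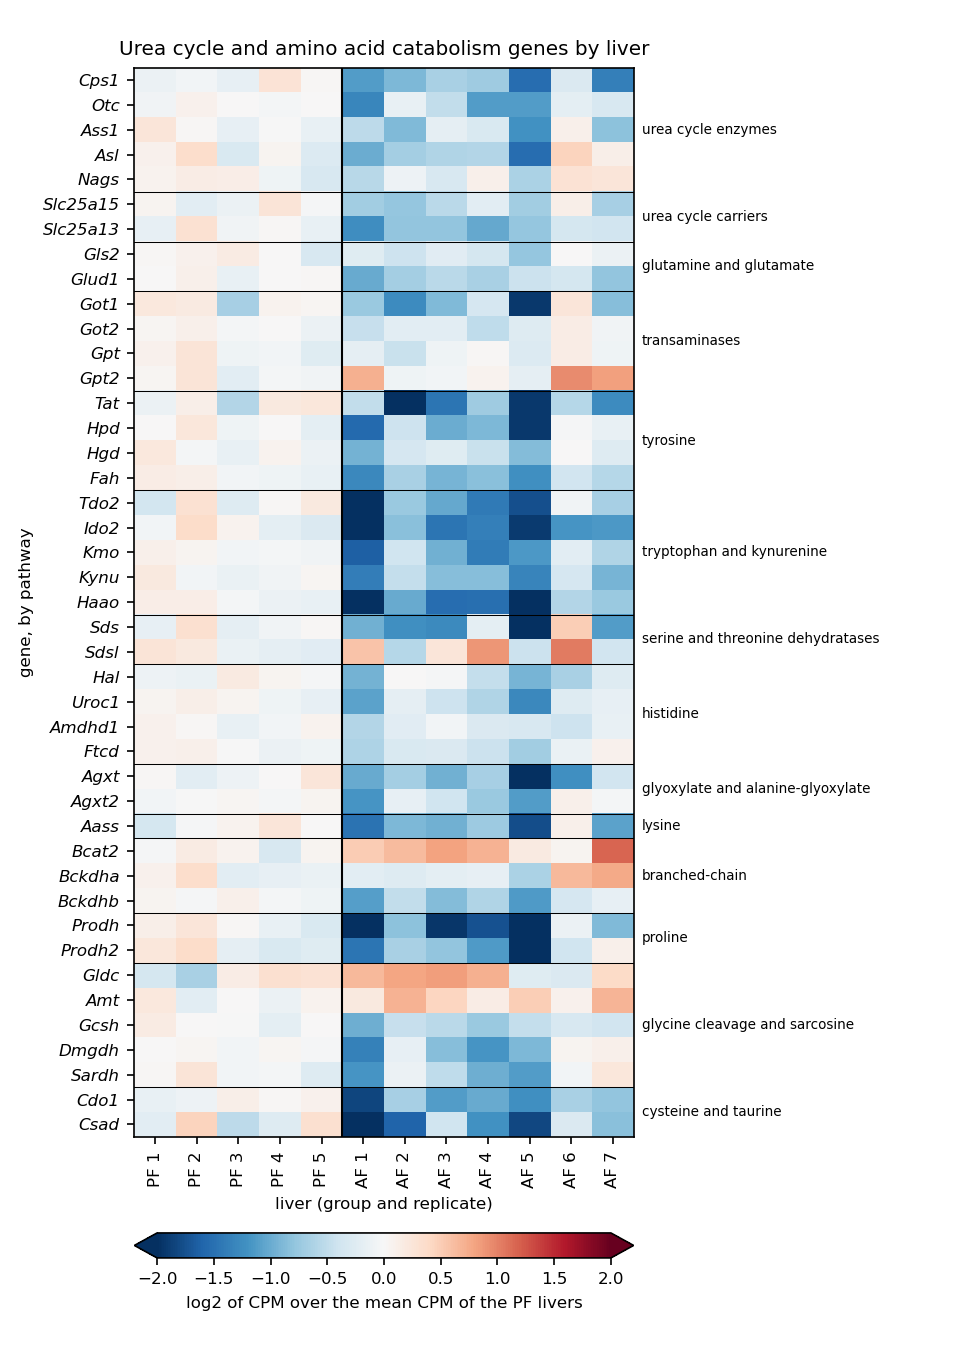
Level of 43 of the 44 genes (rows, grouped by pathway) in the 12 livers (columns), as log2 CPM minus the mean of the PF livers, with colours that end at 2 in both directions. AF livers 1 and 5 are the bluest for many genes, as for Haao at 39.6 CPM in AF liver 5, while AF liver 6 is close to the PF livers for many, as for Aass at 500 CPM.

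For 14 genes every AF liver lay below every PF liver (31.8%, against 9.49% of all genes tested), and no member had every AF liver above every PF liver (8.20% of all genes tested). The 14 genes were Cps1, Otc, Slc25a13, Glud1, Fah, Ido2, Kmo, Kynu, Haao, Uroc1, Agxt, Bckdhb, Gcsh and Cdo1. They come from 10 of the 14 pathways used below, so the separation of the groups was not limited to a single route. The AF livers also differed more among themselves. The SD of log2(CPM + 0.1) was larger in AF than in PF livers for 44 of the 44 genes, with a median of 0.468 in AF and 0.170 in PF, while it was larger in AF for 71.8% of all genes tested.

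The AF livers did not share this pattern to the same degree. AF livers 1 and 5 held 36 of the 44 lowest AF values, and AF liver 6 held 28 of the highest. Together the 44 genes took 2.32 to 2.70% of the counts of a PF liver and 1.36 to 2.23% of those of an AF liver, so the ranges did not overlap even without TMM scaling. In CPM their sum ran from 25712 to 30290 in PF livers and from 11823 in AF liver 5 to 25282 in AF liver 6. Below the lowest PF liver were 40 of the 44 genes in AF liver 5, 37 in AF liver 2, 35 each in AF livers 1 and 4, 32 in AF liver 3 and 28 in AF liver 7, but 18 in AF liver 6. AF liver 6 was also above the highest PF liver for 10 genes, among them the transaminase Gpt2. Without AF liver 6, the 23 lower genes all still passed the test and 11 more did so (Ass1, Asl, Gls2, Got1, Got2, Hpd, Hgd, Sds, Ftcd, Agxt2 and Dmgdh, with edgeR adjusted p from 0.00521 to 0.0470), which gave 34 lower genes. AF liver 6 was picked for its high values of these same genes, so a larger count without it follows from that choice. Leaving out any other single liver gave from 17 lower genes (without PF liver 5) to 25 (without AF liver 7).

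**Figure D2:**
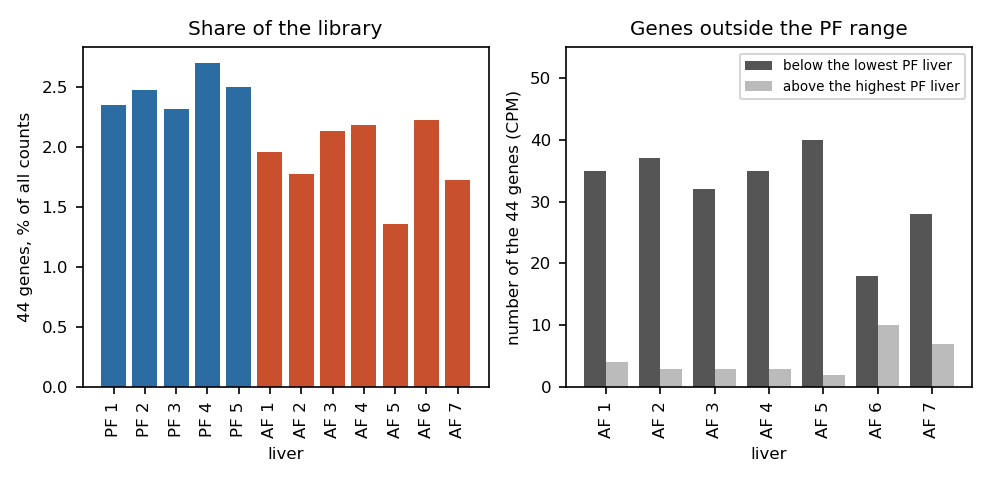
Left, percent of all counts of a library that fell on the 44 genes, 1 bar per liver. Right, number of the 44 genes whose CPM was below the lowest or above the highest PF liver, for each AF liver. AF liver 6 had 18 genes below and 10 above the PF range, and AF liver 5 had 40 below and 2 above.

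The counts depended on what the genes were measured against. Of 14 tested marker genes of hepatocytes, mostly secreted plasma proteins, 3 were lower and none was higher in edgeR (9 and 1 with DESeq2, 6 and 1 at an unadjusted p under 0.05), with a median log2 fold change of -0.56, close to that of the 44 genes. The call of Trf among them was lost without some single livers (edgeR adjusted p up to 0.0973). The 14 markers took between 12.02 and 15.3% of the reads of a PF liver and between 10.5 and 14.2% of those of an AF liver. Per count of these markers, the 44 genes had 0.161 to 0.209 counts in PF livers and 0.121 to 0.190 in AF livers. On this scale the ranges of the 2 groups overlapped. The summed counts of these markers were then used as library size, so a fold change reads as a level relative to hepatocyte plasma protein RNA. Alb was by far the most abundant of these markers, so this scale rests largely on Alb. With this library size, 3.85% of all genes tested were lower and 55.4% were higher. On this scale 5 of the 44 genes were lower (Tdo2, Ido2, Haao, Prodh and Cdo1) and 9 were higher (Nags, Got2, Gpt, Gpt2, Sdsl, Bcat2, Bckdha, Gldc and Amt). The median of the 44 genes was then -0.05 and that of all genes 0.60, a distance of -0.66 that was -0.61 with TMM scaling. With library totals and no TMM factors, 14 genes were lower and 4 were higher. Ido2, Haao, Prodh and Cdo1 were lower and Bcat2 was higher under each of the 21 settings that were run.

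**Figure D3:**
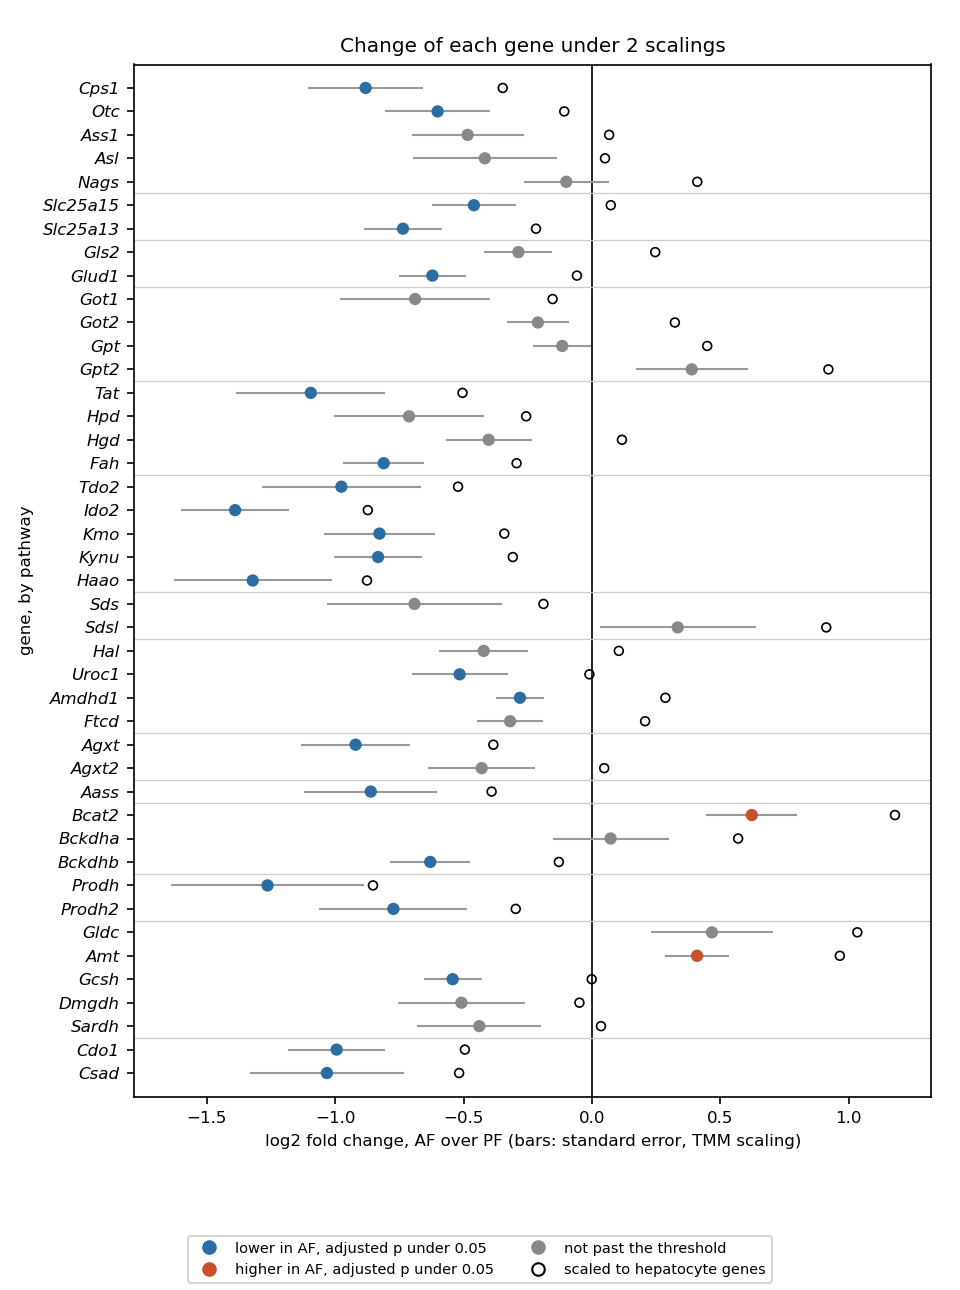
Log2 fold change of 43 of the 44 genes with TMM scaling and its SE (filled points) and with the hepatocyte marker list as library size (open points), by pathway. Ido2, at -1.39 with TMM scaling and -0.87 with the hepatocyte list, lies to the left of 0 on both scales, while Gpt2 lies to the right of 0 on both, at 0.39 and 0.92.

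The stretch before the transcription start is shown for 4 of the 14 genes whose groups did not overlap, a urea cycle enzyme, a urea cycle carrier, glutamate dehydrogenase and a peroxisomal transaminase, as examples of how unlike these promoters are. Each line gives the 250 bases before the start on the strand of the gene, from the RefSeq table of GRCm38.p6, with capitals for a match to one of the motifs named below. The stretches lie at chrX:10252055-10252304 on the plus strand (Otc), chr6:6217174-6217423 on the minus strand (Slc25a13), chr14:34310477-34310726 on the plus strand (Glud1) and chr1:93134990-93135239 on the plus strand (Agxt).
Otc: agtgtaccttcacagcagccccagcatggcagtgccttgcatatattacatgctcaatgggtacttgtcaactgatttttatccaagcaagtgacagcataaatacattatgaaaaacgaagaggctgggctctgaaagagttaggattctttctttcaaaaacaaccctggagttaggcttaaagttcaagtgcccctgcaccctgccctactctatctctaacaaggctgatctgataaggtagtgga
Slc25a13: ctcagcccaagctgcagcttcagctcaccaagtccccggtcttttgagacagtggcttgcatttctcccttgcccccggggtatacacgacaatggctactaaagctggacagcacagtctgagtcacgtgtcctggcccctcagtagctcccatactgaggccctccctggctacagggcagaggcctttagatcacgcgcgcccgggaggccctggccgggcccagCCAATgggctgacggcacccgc
Glud1: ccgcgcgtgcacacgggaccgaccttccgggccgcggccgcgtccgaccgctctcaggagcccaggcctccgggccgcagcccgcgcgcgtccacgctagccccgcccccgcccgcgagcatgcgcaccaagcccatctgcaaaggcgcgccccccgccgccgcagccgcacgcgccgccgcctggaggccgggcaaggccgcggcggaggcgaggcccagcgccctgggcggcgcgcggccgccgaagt
Agxt: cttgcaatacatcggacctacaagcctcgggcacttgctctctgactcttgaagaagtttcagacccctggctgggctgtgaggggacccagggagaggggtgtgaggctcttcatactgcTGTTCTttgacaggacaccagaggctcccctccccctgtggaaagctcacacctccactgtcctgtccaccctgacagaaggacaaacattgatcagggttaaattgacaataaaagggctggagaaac
Their GC content was 43.6% for Otc, 62.8% for Slc25a13, 82.0% for Glud1 and 53.6% for Agxt, against a median of 52.0% over 27018 promoters. The capitals mark a CCAAT box in Slc25a13, 22 to 18 bases before the start. In Agxt they mark a partial glucocorticoid receptor motif (AGAACA, here read on the other strand), 129 to 124 bases before the start. Otc and Glud1 held no match to the motifs named below.

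Over both strands and the 250 bases before the RefSeq start, 34 of the 44 genes could be searched. For some of them this start lay away from the GENCODE start, by 11812 bases for Kmo, 1173 for Haao and 1034 for Sardh. For the genes shown above the RefSeq and GENCODE starts were the same. A TATA box (TATAAA) was found in 6 of the 34 and in 12.97% of all promoters, and a CCAAT box (CCAAT) in 14 and 34.5%. An HNF4A core (CAAAGTCCA) was found in 1 and 0.381%, a C/EBP site (TTGCNNAA) in 4 and 9.56%, and a partial glucocorticoid receptor motif (AGAACA) in 3 and 16.2%. A further motif, not named here, was found in 4 of the 34 and in 6.52% of all promoters. These are matches of letters and say nothing about binding.

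In the urea cycle, the first mitochondrial steps and both carriers were lower in AF livers, and the 2 cytosolic steps from citrulline to arginine did not pass in edgeR. Without AF liver 6 these 2, Ass1 and Asl, passed as well (edgeR adjusted p = 0.0228 and 0.0467). Of the 6 urea cycle enzymes, 3 were lower in edgeR, 4 with DESeq2, 4 at an unadjusted p under 0.05 and 5 with limma-voom. The limma-voom fit weights each library by its quality, and AF liver 6 had the lowest weight (0.28, against up to 2.48). Its counts are therefore not independent of those without AF liver 6. Cps1, which makes carbamoyl phosphate from ammonia (chr1:67123026-67231259, plus strand), was at 5281, 5494, 5098, 6955 and 5807 CPM in PF livers and ran from 1988 over a median of 3086 to 4707 CPM in AF livers. Every AF liver was below the PF range, and the log2 fold change was -0.88 (SE 0.224, edgeR adjusted p = 0.00793). Otc, which joins carbamoyl phosphate to ornithine (chrX:10252305-10321024, plus strand), was at 594, 659, 625, 603 and 626 CPM in PF and from 251 over 444 to 559 CPM in AF livers. The groups did not overlap, and the log2 fold change was -0.60 (SE 0.206, edgeR adjusted p = 0.0333). This call was lost when any of the PF livers, AF liver 4 or AF liver 5 was left out, with an edgeR adjusted p of up to 0.0681.

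Ass1, which forms argininosuccinate, was at 3103, 2662, 2332, 2607 and 2352 CPM in PF and from 1129 over 1810 to 2811 CPM in AF livers. AF liver 6 was inside the PF range and the other 6 were below it, and the log2 fold change of -0.48 did not pass (SE 0.218, edgeR adjusted p = 0.0918). For Asl, which cleaves argininosuccinate to arginine, the PF livers were at 263, 316, 201, 258 and 205 CPM. The AF livers ran from 85.9 over 164 to 337 CPM, with 5 below all PF livers and 1, AF liver 6, above them. Its log2 fold change was -0.42 (SE 0.281, edgeR adjusted p = 0.249). Nags makes N-acetylglutamate, the activator of carbamoyl phosphate synthetase. It was at 25.2, 26.7, 26.4, 22.8 and 19.3 CPM in PF and from 15.5 over 22.5 to 29.3 CPM in AF livers (log2 fold change -0.10, SE 0.167, edgeR adjusted p = 0.655).

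Among the carriers, Slc25a13 (citrin, the mitochondrial aspartate-glutamate carrier, chr6:6041218-6217173, minus strand) was at 200, 276, 215, 227 and 203 CPM in PF and from 94.5 over 130 to 175 CPM in AF livers. All 7 AF livers were below the PF range (log2 fold change -0.74, SE 0.152, edgeR adjusted p = 0.00256). The ornithine carrier Slc25a15 was at 475, 396, 423, 546 and 450 CPM in PF and from 269 over 288 to 499 CPM in AF livers, where AF liver 6 alone was in the PF range. Its log2 fold change was -0.46 (SE 0.164, edgeR adjusted p = 0.0389) and changed sign, to 0.07, with the hepatocyte list as library size. The call was lost without AF liver 1, 2, 3, 5 or 7 or without PF liver 1, 3, 4 or 5, with an edgeR adjusted p of up to 0.101.

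**Figure D4:**
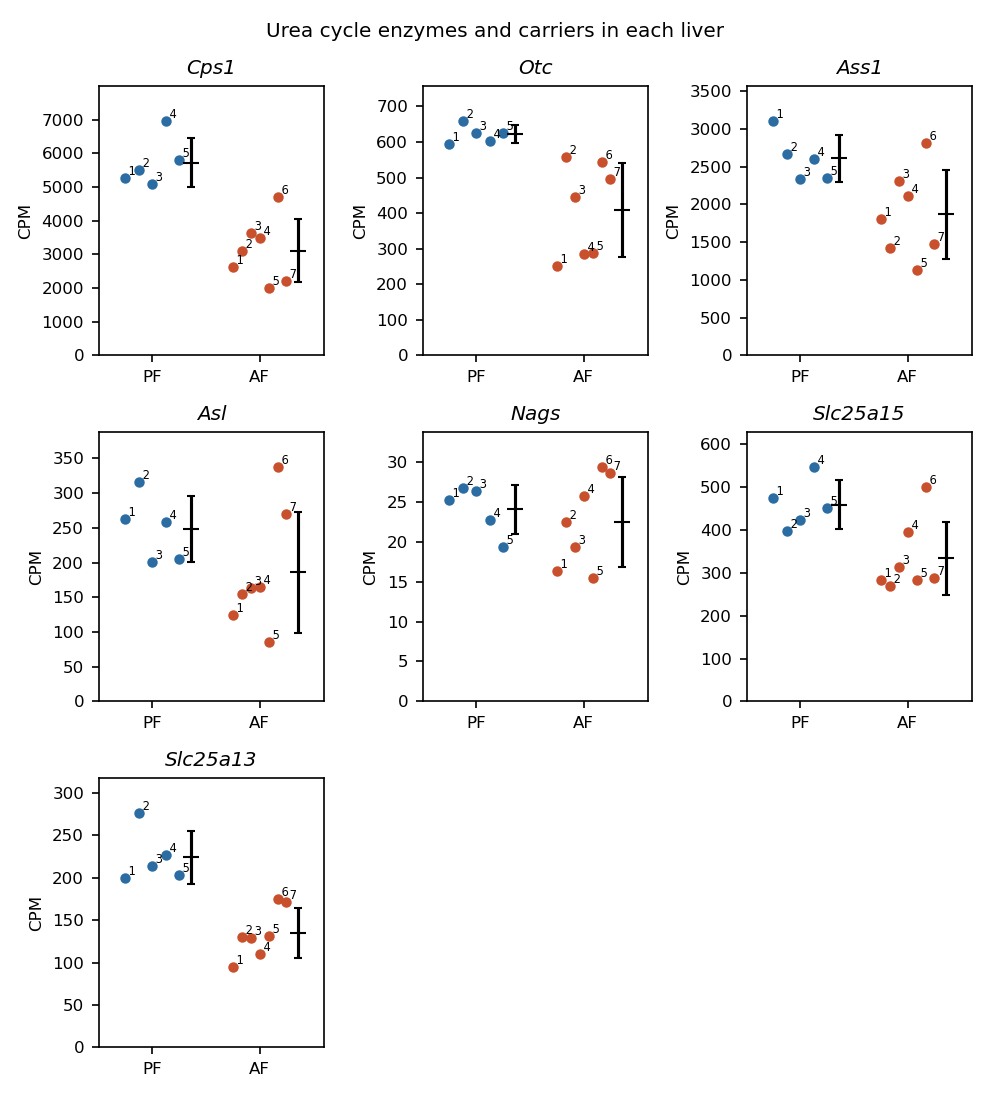
CPM of 5 urea cycle enzymes and the 2 carriers in each liver (points, numbered by replicate), with mean and SD of each group (bars, n = 5 PF and n = 7 AF). The groups are apart for Cps1, Otc and Slc25a13. The AF values of Asl, from 85.9 to 337 CPM, enclose the PF values, with 5 AF livers below all PF livers.

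Of the enzymes that hand over nitrogen, glutamate dehydrogenase was lower and none of the 4 aspartate and alanine transaminases passed in edgeR (1 was lower with DESeq2 and 1 at an unadjusted p under 0.05). Glud1, which releases ammonia from glutamate in mitochondria, was at 1234, 1312, 1111, 1230 and 1253 CPM in PF and from 613 over 784 to 959 CPM in AF livers. The groups were fully apart (log2 fold change -0.62, SE 0.131, edgeR adjusted p = 0.00288). The liver glutaminase Gls2 was at 326, 340, 358, 322 and 258 CPM in PF and from 187 over 270 to 321 CPM in AF livers, with 3 AF livers below the PF range (log2 fold change -0.29, SE 0.132, edgeR adjusted p = 0.0997). Its exons overlap those of Spryd4 on the other strand, and the strand setting of the counting is not stated. The 4 transaminases had log2 fold changes of -0.69 for Got1 (cytosolic aspartate transaminase), -0.21 for Got2 (its mitochondrial form), -0.12 for Gpt (alanine transaminase) and 0.39 for Gpt2 (its mitochondrial form), with edgeR adjusted p from 0.0764 to 0.432. With the hepatocyte list or with library totals as library size, the values of Gls2, Got2 and Gpt turned positive.

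In tyrosine breakdown the first and the last of the 4 member enzymes were lower. Tat, the tyrosine transaminase that is a classical glucocorticoid-induced gene, had the highest level per exon length of the 44 genes in PF livers. It was at 2668, 3157, 1931, 3324 and 3402 CPM there and from 686 over 1212 to 2051 CPM in AF livers. The ranges overlapped at PF liver 3, and 5 of 7 AF livers were below it (log2 fold change -1.09, SE 0.290, edgeR adjusted p = 0.00992). Fah, which splits fumarylacetoacetate, was at 660, 643, 573, 564 and 537 CPM in PF and from 244 over 333 to 456 CPM in AF livers, with no overlap (log2 fold change -0.81, SE 0.158, edgeR adjusted p = 0.00182). The members between them, Hpd and Hgd, did not pass in edgeR. All 4 members were lower with DESeq2, with limma-voom and at an unadjusted p under 0.05. Gstz1, which acts just before Fah and is not among the 44 genes, was lower (log2 fold change -0.79, edgeR adjusted p = 0.00265). Hpd, which forms homogentisate, was between 1341 and 1802 CPM in PF and between 403 and 1513 CPM in AF livers (log2 fold change -0.71, edgeR adjusted p = 0.0660), and Hgd, which opens the homogentisate ring, was between 733 and 939 and between 425 and 822 CPM (log2 fold change -0.40, edgeR adjusted p = 0.0703). Hpd passed without AF liver 6 or 7 and Hgd without AF liver 6 (edgeR adjusted p = 0.0224 and 0.0234 without AF liver 6). The Hgd value turned positive, at 0.12, with the hepatocyte list.

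All 5 enzymes of the tryptophan and kynurenine route were lower, at a median log2 fold change of -0.98. Tdo2 opens the tryptophan ring in hepatocytes. It was at 1373, 2176, 1478, 1787 and 2015 CPM in PF livers and from 372 over 864 to 1687 CPM in AF livers, with AF liver 6 inside the PF range (log2 fold change -0.98, SE 0.311, edgeR adjusted p = 0.0243). Without PF liver 2 its edgeR adjusted p was 0.0609 and without PF liver 5 it was 0.0535. Ido2, the second enzyme for this step in liver, was at 94.0, 126, 102, 85.1 and 80.0 CPM in PF and from 20.2 over 37.9 to 54.6 CPM in AF livers. All AF livers were below the PF range, and its log2 fold change of -1.39 (SE 0.209, edgeR adjusted p = 0.000381) was the largest of the 44 genes.

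The later steps went the same way. Kmo hydroxylates kynurenine. It was at 539, 521, 481, 488 and 480 CPM in PF and from 162 over 257 to 432 CPM in AF livers (log2 fold change -0.83, SE 0.218, edgeR adjusted p = 0.00959). Kynu splits 3-hydroxykynurenine. It was at 316, 266, 253, 262 and 284 CPM in PF and from 106 over 153 to 218 CPM in AF livers (log2 fold change -0.83, SE 0.170, edgeR adjusted p = 0.00237). Haao makes the precursor of quinolinate. It was at 266, 268, 238, 224 and 220 CPM in PF and from 39.6 over 85.7 to 163 CPM in AF livers (log2 fold change -1.32, SE 0.307, edgeR adjusted p = 0.00497). For Kmo, Kynu and Haao no AF liver reached the PF range, and the highest AF value of each was that of AF liver 6.

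**Figure D5:**
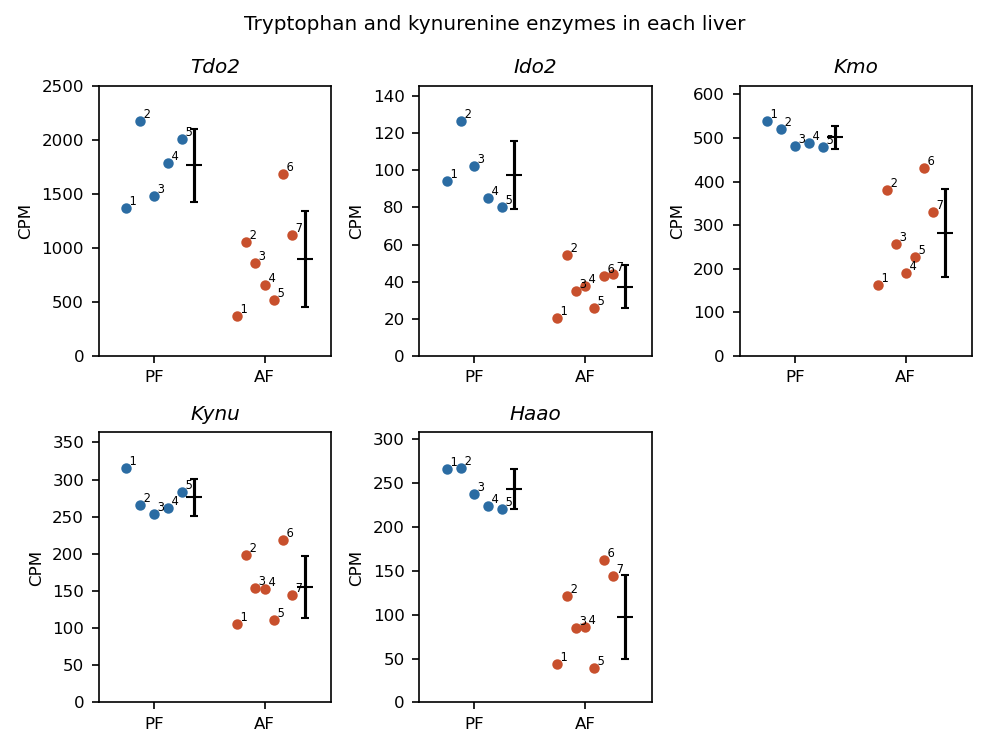
CPM of the 5 tryptophan and kynurenine genes in each liver (points, numbered by replicate), with mean and SD of each group (bars, n = 5 PF and n = 7 AF). The AF livers lie below all PF livers except for Tdo2, where AF liver 6 is at 1687 CPM and the lowest PF liver at 1373 CPM.

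Of the 2 serine and threonine dehydratases none passed in edgeR (none with DESeq2 or at an unadjusted p under 0.05, and 1 was lower with limma-voom). Sds was at 70.9, 98.9, 70.1, 75.5 and 80.0 CPM in PF and from 18.9 over 36.6 to 111 CPM in AF livers. AF liver 6 was above all PF livers and the other 6 were below them (log2 fold change -0.69, SE 0.340, edgeR adjusted p = 0.120). Without AF liver 6 the log2 fold change of Sds was -1.03 (edgeR adjusted p = 0.00521). Sds overlaps exons of Plbd2 on the other strand, which was higher in AF livers. The related gene Sdsl was at 2.80, 2.70, 2.12, 2.04 and 1.99 CPM in PF and from 1.54 over 2.76 to 4.91 CPM in AF livers (log2 fold change 0.33, SE 0.304, edgeR adjusted p = 0.397).

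In histidine breakdown, the second and the third enzyme were lower by small amounts in edgeR. With DESeq2, with limma-voom and at an unadjusted p under 0.05, all 4 enzymes of the route were lower. Uroc1, the urocanase, was at 358, 371, 356, 324 and 308 CPM in PF and from 140 over 259 to 307 CPM in AF livers, so that the groups met without overlap (log2 fold change -0.52, SE 0.187, edgeR adjusted p = 0.0427). Amdhd1, the imidazolonepropionase, was at 118, 113, 101, 107 and 117 CPM in PF and from 74.2 over 91.3 to 108 CPM in AF livers (log2 fold change -0.28, SE 0.0950, edgeR adjusted p = 0.0317), and its sign turned with library totals (0.08) and with the hepatocyte list (0.29). Both calls were lost when single livers were left out, Uroc1 without any PF liver or AF liver 1, 3 or 4 (edgeR adjusted p up to 0.0875) and Amdhd1 without PF liver 1, 2 or 5 or AF liver 1 or 4 (up to 0.0707). Hal, the histidase that starts the route, was at -0.42 on the log2 scale (edgeR adjusted p = 0.0692), and passed without AF liver 2 (edgeR adjusted p = 0.0290) and without AF liver 3. Ftcd, which passes the formimino group to folate, was at -0.32 (edgeR adjusted p = 0.0631, and 0.0147 without AF liver 7).

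Agxt, the peroxisomal transaminase that detoxifies glyoxylate, was lower. It was at 191, 162, 175, 188 and 222 CPM in PF and from 45.3 over 96.1 to 143 CPM in AF livers, with no overlap (log2 fold change -0.92, SE 0.213, edgeR adjusted p = 0.00483). The mitochondrial Agxt2 was at 244, 250, 260, 244 and 263 CPM in PF and from 111 over 192 to 270 CPM in AF livers (log2 fold change -0.43, SE 0.209, edgeR adjusted p = 0.116). Aass, which starts lysine breakdown, was lower as well. It was at 364, 456, 488, 552 and 470 CPM in PF livers and from 136 over 241 to 500 CPM in AF livers, where AF liver 6 stood apart from the other 6 (log2 fold change -0.86, SE 0.259, edgeR adjusted p = 0.0186).

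The branched-chain genes divided. Bcat2, the mitochondrial branched-chain transaminase that liver is known to hold at a low level, was higher, at 7.38, 8.46, 7.91, 5.97 and 7.82 CPM in PF and from 7.78 over 11.7 to 16.9 CPM in AF livers. It was above the PF range in 6 of 7 AF livers (log2 fold change 0.62, SE 0.178, edgeR adjusted p = 0.0145). Its exons overlap those of 0610005C13Rik on the other strand, which was far more abundant (109 ± 14.2 CPM in PF and 87.8 ± 29.9 CPM in AF livers), so the level of Bcat2 is uncertain if strand was not used in counting. Bckdhb, the beta subunit of the branched-chain keto acid dehydrogenase, was lower, at 89.3, 84.5, 92.3, 84.1 and 81.6 CPM in PF and from 39.4 over 56.9 to 76.9 CPM in AF livers (log2 fold change -0.63, SE 0.157, edgeR adjusted p = 0.00715). The alpha subunit Bckdha was between 44.1 and 65.3 CPM in PF and between 33.0 and 86.5 CPM in AF livers (log2 fold change 0.07, SE 0.226, edgeR adjusted p = 0.817). Within a liver, the log2 ratio of Bckdhb to Bckdha was 0.763 ± 0.255 in PF and 0.0866 ± 0.286 in AF livers, and it was below all PF livers in 6 of 7.

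Both proline dehydrogenases were lower. Prodh, which oxidises proline, was at 135, 146, 125, 112 and 99.6 CPM in PF and from 18.3 over 37.1 to 114 CPM in AF livers, where AF liver 6 alone was in the PF range (log2 fold change -1.26, SE 0.377, edgeR adjusted p = 0.0179). Prodh2, which oxidises hydroxyproline, was at 46.4, 51.1, 35.0, 32.1 and 33.3 CPM in PF and from 9.74 over 22.8 to 42.3 CPM in AF livers, where AF liver 7 was in the PF range (log2 fold change -0.77, SE 0.288, edgeR adjusted p = 0.0468). The call for Prodh2 was lost without any of the PF livers or AF livers 1 to 5, with an edgeR adjusted p of up to 0.114.

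The subunits of the glycine cleavage system, which splits glycine to carbon dioxide, ammonia and a folate-bound carbon, also moved apart. Gcsh, the lipoic acid carrier, was lower, at 138, 123, 122, 107 and 124 CPM in PF and from 62.5 over 88.3 to 98.7 CPM in AF livers, with no overlap (log2 fold change -0.54, SE 0.112, edgeR adjusted p = 0.00261). Amt, the aminomethyltransferase, was higher, at 50.6, 37.8, 44.3, 40.5 and 46.0 CPM in PF and from 46.7 over 59.0 to 70.7 CPM in AF livers (log2 fold change 0.41, SE 0.125, edgeR adjusted p = 0.0197). Without PF liver 2 or 4 its edgeR adjusted p was 0.0579 or 0.0526. Gldc, the glycine decarboxylase, was between 83.3 and 163 CPM in PF and between 107 and 234 CPM in AF livers, with 5 AF livers above the PF range (log2 fold change 0.47, edgeR adjusted p = 0.130). Dmgdh and Sardh, which remove methyl groups from dimethylglycine and sarcosine, were at -0.51 and -0.44 on the log2 scale (edgeR adjusted p = 0.114 and 0.162). Without AF liver 7 the adjusted p of Dmgdh was 0.0457.

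Both enzymes on the way from cysteine to taurine were lower. Cdo1, the cysteine dioxygenase, was at 1756, 1806, 2107, 1981 and 2056 CPM in PF and from 546 over 963 to 1240 CPM in AF livers, with no overlap (log2 fold change -0.99, SE 0.189, edgeR adjusted p = 0.00162). Csad, the cysteine sulfinate decarboxylase, was at 72.7, 114, 58.1, 70.1 and 105 CPM in PF and from 20.9 over 36.3 to 68.6 CPM in AF livers, with 5 AF livers below the PF range (log2 fold change -1.03, SE 0.299, edgeR adjusted p = 0.0154). Csad shares exonic bases with Zfp740 on the other strand, which did not pass the test.

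Levels between genes were set side by side as reads per kilobase of exon (RPKM, from CPM and the exon length of GENCODE M21). In PF livers the order was led by Tat (1204 RPKM), Cdo1 (1181), Ass1 (1082) and Cps1 (1031), followed by Hpd (723). In AF livers it was led by Ass1 (773), Cdo1 (593), Tat (564) and Cps1 (560). The lowest in both groups were Sdsl, at 1.56 RPKM in PF and 1.96 in AF livers, and Bcat2, at 1.93 and 2.96. Gpt2 moved from rank 24 in PF to rank 13 in AF livers, and Haao from rank 28 to rank 37.

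Pairs of genes for the same or a related step were compared within each liver as log2 ratios, as a description. Sdsl over Sds was -5.09 ± 0.259 in PF and -3.99 ± 0.462 in AF livers, and all 7 AF livers were above all PF livers. Prodh2 over Prodh was above all PF livers in 6 AF livers and below them in AF liver 6, and Agxt2 over Agxt was above in 5 and just below in AF liver 1. Gpt2 over Gpt and Got2 over Got1 were each above all PF livers in 4. Sardh over Dmgdh, the pair that ran most alike, was above in 1.

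Other genes of the same pathways were read from fixed lists, to be set beside the 17.8% lower and 22.0% higher of all genes tested. Of 9 tested neighbours of the urea cycle, 2 were lower and 2 were higher. Glul, the glutamine synthetase of pericentral hepatocytes, fell by 1.77 on the log2 scale and the folate enzyme Aldh1l1 by 0.92. All 4 tested neighbours of the tyrosine route were lower, among them Qdpr, which recycles the cofactor of phenylalanine hydroxylase (log2 fold change -1.45), and Gstz1, which acts just before Fah (-0.79). Of 6 further tryptophan genes 3 were lower, among them Aadat, which makes kynurenic acid (-1.26), and Qprt, which uses quinolinate for NAD (-0.83).

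Of 19 further branched-chain genes, 12 were lower and 1 was higher. The gene that rose was Bckdk, the kinase that switches off the branched-chain keto acid dehydrogenase, from 7.53 ± 1.46 CPM in PF to 15.4 ± 1.28 CPM in AF livers (log2 fold change 1.03, SE 0.122, edgeR adjusted p = 7.17e-05), with all 7 AF livers above all PF livers. The gene that fell most was Ppm1k, the phosphatase that switches the same complex on, from 78.5 ± 20.5 to 40.3 ± 5.55 CPM (log2 fold change -0.96, SE 0.151, edgeR adjusted p = 0.000479), with all 7 AF livers below. Next in size came Acadsb, an acyl-CoA dehydrogenase (-0.86). Dbt, the core subunit of the complex, chosen here after its value was seen, was lower as well (-0.80, SE 0.109, edgeR adjusted p = 0.000181).

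Of 7 genes of amino acid synthesis, 3 were higher and none was lower in edgeR, DESeq2 and at an unadjusted p under 0.05, and the 3 had no overlap between groups (8.20% of all genes tested had all AF livers above all PF livers). Psat1, of serine synthesis, rose from 1.43 ± 0.837 to 21.4 ± 12.9 CPM (log2 fold change 3.92, SE 0.504, edgeR adjusted p = 0.000126). Pycr1, the last step of proline synthesis, rose from 0.321 ± 0.0828 to 1.90 ± 1.04 CPM (2.57, edgeR adjusted p = 0.000813), and Aldh18a1, the first step, named after its value was seen, from 2.90 ± 0.576 to 11.9 ± 4.37 CPM (2.03, edgeR adjusted p = 0.000187). Of 4 further genes of proline and hydroxyproline breakdown 2 were lower, Hao1, the peroxisomal glycolate oxidase (log2 fold change -2.14), and Aldh4a1, which follows both proline dehydrogenases (-0.50). Without some single livers the adjusted p of Aldh4a1 reached 0.0935. Among 5 genes of serine, glycine and threonine use 3 were lower, led by Gcat (-1.10) and Shmt1 (-0.92). Of 6 further lysine genes 2 were lower, Pipox (-0.94) and Hykk (-0.88), and 1 was higher, Crym (2.58, from 0.365 CPM in PF livers). Of 4 further cysteine genes 3 were lower by about the same amount, led by Suox (-0.53) and Tst (-0.50, which became 0.02 with the hepatocyte list), calls that were lost without some single livers (edgeR adjusted p up to 0.106 and 0.0849), and of the pair of histidine and formate genes Aldh1l2 was higher (1.61).

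Of 20 amino acid transporters, 6 were higher (30%) and 7 were lower (35%), against 22.0% and 17.8% of all genes tested. The largest rises were those of the cationic amino acid transporter Slc7a1 (log2 fold change 2.48) and the neutral amino acid transporter Slc1a4 (2.35, from 11.5 CPM), and the largest falls those of Slc43a1 (-1.29) and the hepatocyte transporter Slc38a4 (-1.04, from 1614 CPM). Of 16 genes listed as regulators of these pathways 9 were lower and 2 were higher. Ppargc1a, a coactivator induced by fasting, fell by 1.89 and Onecut1, a hepatocyte factor, by 1.62, while Atf4, the factor of the amino acid response, rose by 0.46 and Glmp, a lysosomal membrane protein, by 0.44. Hnf4a, which acts at many hepatocyte promoters, did not pass, at -0.23 (edgeR adjusted p = 0.401).

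Several of the marker lists of other cells held more higher genes than the 22.0% of all genes tested. Higher in AF livers were 8 of 10 genes of recruited macrophages, whose sum ran from 364 to 941 CPM in PF and from 749 to 3176 CPM in AF livers, 8 of 9 of stellate cells and fibrosis (173 to 422 and 376 to 1026 CPM), 5 of 6 of bile ducts (49.9 to 244 and 76.0 to 1119 CPM, most of it Spp1, which did not pass), 4 of 7 of proliferation (15.2 to 62.2 and 17.2 to 175 CPM) and 4 of 6 of Kupffer cells (1119 to 1354 and 829 to 2495 CPM), of which C6, also made by hepatocytes, was lower. Of 7 genes of sinusoidal endothelium 1 was higher (161 to 337 and 190 to 345 CPM). Of 9 neutrophil genes none passed in edgeR, with 2 lower in DESeq2 and 2 at an unadjusted p under 0.05 (55.1 to 809 and 47.3 to 187 CPM). With limma-voom none of the 9 was lower and 1 was higher. In edgeR 1 each of 8 T and NK cell genes (8.54 to 14.8 and 4.28 to 7.95 CPM) and of 5 B cell genes (16.6 to 136 and 7.70 to 28.6 CPM) was lower. The highest neutrophil sum was that of PF liver 1, where S100a8 was at 273 CPM against 15.4 to 66.3 CPM in the other PF livers. When that liver was left out, S100a8 moved from -1.51 to -0.38 on the log2 scale (edgeR adjusted p = 0.502). Calls were lost without some single livers for 3 of the 4 proliferation genes (Mki67, Ccnb1 and Ccnb2, with an edgeR adjusted p of up to 0.107, 0.0806 and 0.0998), for 1 of the 4 Kupffer cell genes (Clec4f, up to 0.108) and for 1 of the 8 macrophage genes (Adgre1, up to 0.0604). None of these markers was at 0 in any liver. Spp1 stands in the lists of both macrophages and bile ducts and Alb in those of hepatocytes and periportal genes. Glul and Oat stand among both pericentral genes and urea cycle neighbours.

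Markers of the zones of the lobule were read in the same way, against 17.8% lower among all genes tested. Of 10 periportal genes 1 was lower (10%) and 2 were higher in edgeR (4 and 2 with DESeq2 and at an unadjusted p under 0.05), and their sum, most of it Alb, ran from 83447 to 124849 CPM in PF and from 41238 to 90073 CPM in AF livers. Of 12 pericentral genes 3 were lower (25%) and none was higher in edgeR (5 and 1 with DESeq2, 6 and 0 at an unadjusted p under 0.05), with sums of 21653 to 25125 and 6569 to 37299 CPM. The highest sum, in AF liver 7, was mostly Cyp2c29 (23974 CPM), which did not pass (log2 fold change 0.81, edgeR adjusted p = 0.108). The part of these cell types and zones in the levels of the 44 genes was not tested.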

How the data were processed

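Whole liver RNA of 5 PF and 7 AF mice was sequenced by the authors after oligo(dT) enrichment. Read quality was examined with FastQC 0.10.1, and reads were aligned to mm10 (GRCm38) with TopHat2 2.0.13. According to the submitters' processing notes HTSeq 0.10.0 was used. What the authors deposited are raw read counts for each Ensembl gene, without normalization. The annotation and strand setting of the counting are not given in the sources used here, and the library kit was stranded. Columns were assigned by group and replicate number in their names. Of 54232 IDs, 54165 were named by GENCODE M21 (release 21).

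Counts were analysed in R 4.3.3 with edgeR 4.0.16 (TMM, filterByExpr by group, quasi-likelihood test over all genes left, Benjamini-Hochberg adjustment, threshold 0.05), and the SE was derived from the F statistic. Cuffdiff2, the study's test, needs aligned reads and could not be run on counts. The 44 genes and the lists of other genes and markers were chosen with earlier results of these data known. One member and some genes of the other lists are counted but not reported here by name. The other members are named, and the urea cycle enzymes, the 2 largest changes past the threshold in each pathway and all genes of a pathway of 2 or fewer members are given with the value of every PF liver and the lowest, median and highest AF liver. Of other genes, up to 2 past the threshold in each direction of a list are named unless stated. Depth was 24129900 to 30578639 reads per library. A count of 0 would allow 3 counts at 95% confidence, which covers counting error only. Each of the 31 pairs of libraries within groups differed by more than counting noise (lowest ratio of observed to counting variance 21.1). On simulated data with 200 of 14168 genes changed by 1 on the log2 scale, edgeR recovered 178 with 7 false calls. The simulation used the same dispersion of 0.05 for every gene in both groups. The livers here had more changed genes and a wider spread in AF, so these figures do not describe the test on them.

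Alternatives were DESeq2 1.42.0, RLE factors, library totals, the hepatocyte list as library size, limma-voom with sample quality weights (limma 3.58.1), a filter at 1 count in any library, another at a mean of 10 counts, the replicate number as a block, and each liver left out in turn.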

Additional observations from a re-analysis of the deposited data

Results flagged for a closer look

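Over 88 groups of values (the 44 genes in both diets), 2 held a liver whose gap to its nearest neighbour was a larger share of the group's range than 95% of chance groups would show, and chance alone gives about 4.4. Got1 was at 227 CPM in PF liver 3, with the next PF liver at 368 CPM. Aass was at 500 CPM in AF liver 6, with the next AF liver at 281 CPM.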

How the results depend on the processing

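Against 23 lower and 2 higher genes with TMM scaling, library totals gave 14 and 4 and the hepatocyte list as library size gave 5 and 9. With limma-voom and sample quality weights, of which AF liver 6 had the lowest (0.28), there were 35 and 2. DESeq2 gave 29 lower genes and RLE factors 23, and the count of lower genes ran from 17 to 34 when single livers were left out (highest without AF liver 6), that of higher genes from 1 to 2 (lowest without PF liver 2 or 4). Of the 23 lower genes, 17 passed in each of the 12 such fits. Over all genes tested, 3116 higher and 2518 lower calls became 6452 and 939 with library totals and 7855 and 546 with the hepatocyte list. Signs turned with the hepatocyte list for Ass1 (0.067), Asl (0.051), Nags (0.41), Slc25a15 (0.073), Gls2 (0.25), Got2 (0.32), Gpt (0.45), Hgd (0.12), Hal (0.10), Amdhd1 (0.29), Ftcd (0.21), Agxt2 (0.048) and Sardh (0.035), and for the medians of glutamine and glutamate (0.094), transaminases (0.39), serine and threonine dehydratases (0.36), histidine (0.16) and glycine cleavage and sarcosine (0.035). With library totals they turned for Nags (0.23), Gls2 (0.065), Got2 (0.13), Gpt (0.25), Amdhd1 (0.080), Ftcd (0.020), transaminases (0.19) and serine and threonine dehydratases (0.17). Bckdha, and with it the branched-chain median, turned to -0.023 with limma-voom, -0.28 with the replicate block, -0.05 without AF liver 6 and -0.078 without AF liver 7. These scalings differ in their construction, and which is nearer to RNA per cell was not tested. Same-numbered PF and AF livers deviated together with correlations of -0.075 to 0.117, and 2 of 5 correlated best with their own number, so the numbers were not taken as pairs. The fit with the replicate block, in which AF livers 6 and 7 have no partner, gave 34 lower and 2 higher genes. Depth limits the least covered gene, Sdsl, most, which had the 40 counts that were the fewest of any of the 44 genes in a library.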
